A study of Homo sapiens with 24 samples.

Results

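Keratins and desmosome genes were followed through 24 arrays of sorted human breast cancer cells. The set holds every gene whose symbol is KRT followed by digits and at most 1 letter from A to C, plus 12 desmosome genes. Only genes with a probe set naming them alone were taken. The set was picked by name and not by its values, though with earlier results of these data known. It came to 59 genes of 22395 named genes, of which 26 were type I keratins, 21 type II keratins and 12 desmosome genes. KRT34 and KRT222, whose probe sets name a further gene, were left out, and KRT6A, KRT6B, KRT17, KRT81, KRT82 and KRT86 were not analysed here.

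Cells came from SUM159, a breast cancer line without hormone receptors and of mesenchymal type, and from T47D, a luminal line with the oestrogen receptor. Each line received the small molecule ID8 at 5 µM or DMSO, its solvent, for 72 hours, and was then split by flow cytometry into Aldefluor+ cells, whose high aldehyde dehydrogenase activity the submitters read as marking cancer stem cells, and Aldefluor- cells. That gave 8 groups of 3 arrays: SUM159 with ID8 Aldefluor+, SUM159 with ID8 Aldefluor-, SUM159 with DMSO Aldefluor+, SUM159 with DMSO Aldefluor-, and the matching groups of T47D. Every group has 3 arrays because each line went through 3 experiments, numbered 2, 3 and 4 for SUM159 and 5, 6 and 7 for T47D. Both lines are long-established cultures, so each stands for 1 tumour, and each array stands for the pooled RNA of many sorted cells. Pairs of groups below ask what ID8 changed in a fraction and how the fractions differ under a treatment, and pairs that share a group share its arrays.

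Keratins are the intermediate filament proteins of epithelial cells, and a filament needs a type I and a type II keratin that assemble as a pair. Desmosomes anchor these filaments at cell contacts: desmogleins (DSG) and desmocollins (DSC) are cadherins that span the membrane and bind the neighbouring cell, plakoglobin (JUP) and plakophilins (PKP) hold their tails, and desmoplakin (DSP) ties the plaque to the keratin filaments. In the breast, luminal cells are known for KRT8, KRT18 and KRT19, basal cells for KRT5 and KRT14, and most other members belong to skin, hair or other epithelia.

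Values are log2 signals that the authors had already adjusted for batch. In these values the lines differed little: the SD of their differences across genes was 0.118, and the largest was 1.18. Each experiment held 1 line only, so adjusting for experiment cannot be separated from the line itself. PGR, the progesterone receptor, averaged 5.08 in SUM159, a line without hormone receptors, against 6.25 in T47D. How far the adjustment changed the differences between the lines was not tested. Markers still pointed the way of the labels: 7 of 7 SUM159 markers were higher in SUM159 and 9 of 9 T47D markers, KRT8, KRT18 and KRT19 among them, were higher in T47D. For KRT8 and KRT18 the mean of SUM159 minus that of T47D was small, at -0.084 and -0.158. The SDs of KRT8 were 0.30 in SUM159 and 0.46 in T47D, and those of KRT18 were 0.15 and 0.14. Markers of fibroblasts, leukocytes and endothelium had means below 2 in both lines (7 of 7 measured, 0.907 to 1.87). ALDH1A1, an enzyme that the Aldefluor assay can read, was higher in SUM159 Aldefluor+ than Aldefluor- cells by 3.02 ± 0.17 with ID8 and by 2.80 ± 0.17 with DMSO (log2, SE, n = 3 arrays per group). In T47D it was not called between the fractions, at 3.17 in Aldefluor+ and 3.20 in Aldefluor- cells with ID8, and at 3.28 and 3.07 with DMSO. One array, SUM159 with DMSO Aldefluor+ of experiment 4, stood apart with an interquartile range over genes of 2.88, against 2.97 to 3.12 on the other 23. Most results of members that include it are also given without it. A signal below 2 is called low here, since it lies near background, and folds of low genes are not ratios of transcript number.

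DSP and KRT75 carried 6 of the 7 calls described below, and the annotated starts of their genes are shown for orientation, as RefSeq gives them for GRCh38.p14, from 250 bases before the start to 50 bases after it. Capitals mark CACCTG in either orientation, a form of the E-box that repressors of epithelial genes are known to bind.
DSP, chr6:7541421-7541720, + strand: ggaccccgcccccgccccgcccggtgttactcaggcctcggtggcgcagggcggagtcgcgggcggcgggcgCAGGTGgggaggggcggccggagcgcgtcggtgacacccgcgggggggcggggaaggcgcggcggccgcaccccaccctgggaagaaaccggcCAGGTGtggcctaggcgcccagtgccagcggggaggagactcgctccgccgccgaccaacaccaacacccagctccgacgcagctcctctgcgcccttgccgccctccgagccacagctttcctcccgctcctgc
KRT75, chr12:52434322-52434621, - strand: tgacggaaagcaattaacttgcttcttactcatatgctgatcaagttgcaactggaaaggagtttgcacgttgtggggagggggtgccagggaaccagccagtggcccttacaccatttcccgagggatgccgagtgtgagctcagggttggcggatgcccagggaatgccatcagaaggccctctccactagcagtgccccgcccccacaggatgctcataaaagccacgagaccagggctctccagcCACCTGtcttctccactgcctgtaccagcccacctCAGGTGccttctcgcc
The DSP stretch is 77.0% G and C and holds CACCTG at 178 and 85 bases before the start. The KRT75 stretch is 58.0% G and C and holds it 1 base before the start and again at position 35 after it. Neither stretch holds TATAAA, the core of a TATA box, or TGANTCA, an AP-1 site, on either strand.

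A promoter of this length was found for 41 of the 59 members, and the shares below are descriptions of sequence, not of binding. CACCTG occurred in 29.3% of members and in 20.6% of all 27305 promoters in the table. TATAAA was found in 43.9% of members and in 12% of all promoters. It was present in 13 of 19 type I keratins and 5 of 13 type II keratins, and in 0 of 9 desmosome genes. TGANTCA occurred in 0.0% of members and 7.76% of all promoters. The median share of G and C was 43.3% for type I keratins, 49.0% for type II keratins and 63.3% for desmosome genes, against 58.3% over all promoters. Members also lie together on few chromosomes: 25 of 26 type I keratins on chromosome 17, all 21 type II keratins on chromosome 12 together with KRT18, and all 7 desmosomal cadherins on chromosome 18.

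Most members had a low signal. Over the 24 arrays 42 of 59 (71.2%) had a mean below 2, against 49.0% of all named genes, and 13 (22.0%) had a mean of at least 3, against 37.1% of all. These 13 were DSG2 (7.37), DSP (6.51), JUP (4.92), KRT19 (4.89), KRT18 (4.82), KRT23 (4.08), DSC2 (4.00), KRT7 (3.86), PKP3 (3.66), PKP2 (3.59), KRT80 (3.40), KRT75 (3.34) and KRT8 (3.12). Signals of different probe sets are not on 1 scale of abundance, so this order does not rank transcripts. Members with a mean of at least 3 included the cadherins DSG2 and DSC2, genes of their plaque and the keratins of luminal cells. The skin cadherins DSG1, DSG3, DSG4, DSC1 and DSC3 and the basal keratins KRT5 and KRT14 were low in both lines in the adjusted values.

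**Figure D1:**
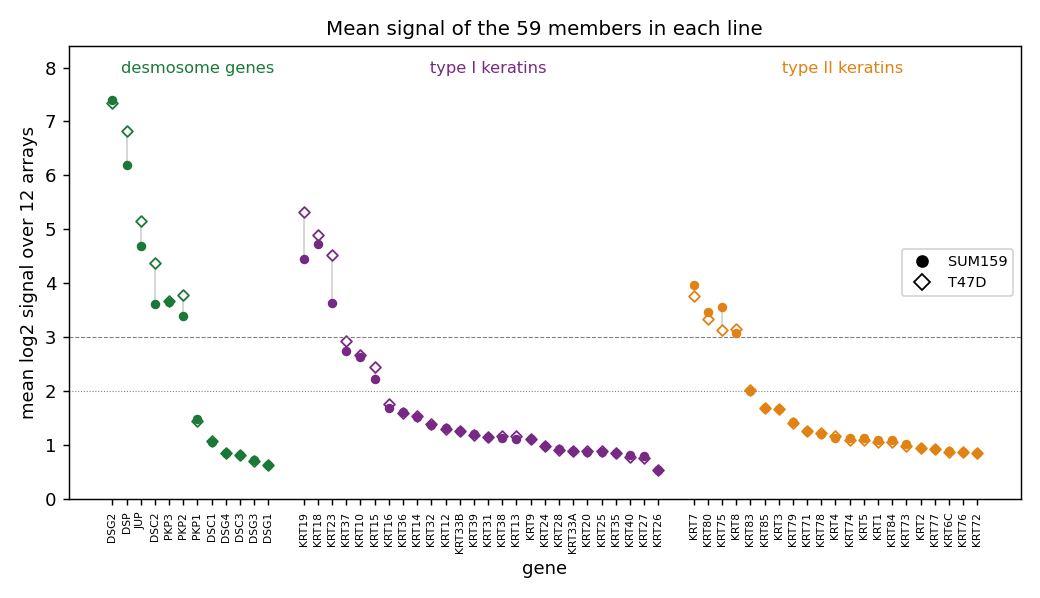
Mean log2 signal over 12 arrays (vertical axis) of each of the 59 genes (horizontal axis) in SUM159 (filled circles) and T47D (open diamonds), ordered within desmosome genes, type I keratins and type II keratins. Dotted and dashed lines mark 2 and 3; 13 genes have a 24-array mean of at least 3, and KRT23, KRT19, DSC2 and DSP are higher in T47D by more than 0.6.

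Between the lines, 29 members were higher in SUM159 and 30 in T47D, with differences of at most 0.887 in size. KRT23, a type I keratin of simple epithelia, averaged 3.63 ± 0.23 in SUM159 and 4.52 ± 0.17 in T47D (SD, n = 12 arrays each). KRT19 averaged 4.46 ± 0.21 in SUM159 and 5.32 ± 0.11 in T47D, and DSC2 averaged 3.62 ± 0.17 in SUM159 and 4.37 ± 0.16 in T47D. None of the 12 SUM159 arrays reached the lowest T47D array for these 3 genes. KRT8 lay at 3.07 ± 0.30 in SUM159 and 3.16 ± 0.46 in T47D, a difference inside the spread of the arrays. All these levels are adjusted values, and each experiment held 1 line only. Levels of a line, alike or different, therefore cannot be told apart from the adjustment for experiment.

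Among the 8 pairs of groups, members were called in 3, all of them in SUM159. A gene was called when limma's moderated test, fitted on all 24 arrays with the experiment as a block and adjusted by Benjamini-Hochberg over 22395 genes, gave an adjusted p under 0.05. ID8 in SUM159 Aldefluor+ cells changed 1 of 59 members, with 0.241% of all genes called. ID8 in SUM159 Aldefluor- cells changed 1, with 0.277% of all genes called. The fractions of SUM159 under ID8 differed in 1, with 0.201% of all genes called. Counts of 1 in 59 are too small to set against these shares, and the genes themselves are described instead.

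Desmoplakin had the lowest adjusted p of any member: under ID8 it was higher in Aldefluor+ than in Aldefluor- cells of SUM159. DSP stood at 6.73, 6.69 and 6.72 in SUM159 Aldefluor+ cells with ID8 in experiments 2, 3 and 4, against 5.55, 5.70 and 5.52 in Aldefluor- cells with ID8. The lowest Aldefluor+ array, at 6.69, lay well above the highest Aldefluor- array, at 5.70. The difference of 1.13 ± 0.11 (SE, 2.18-fold, adjusted p = 0.00022) had a 95% interval of 0.893 to 1.36 and was 1.18, 0.99 and 1.21 in the 3 experiments.

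With DMSO the same fractions lay close together. DSP stood at 6.45, 6.44 and 6.06 in SUM159 Aldefluor+ cells with DMSO, against 6.20, 6.20 and 6.06 in Aldefluor- cells with DMSO. The groups overlapped at experiment 4, whose Aldefluor+ array is the one that stood apart, and the difference of 0.16 ± 0.11 was not called (adjusted p = 0.773). Without that array it was 0.27 ± 0.12 (adjusted p = 0.64). The mean over both treatments was called, at 0.645 ± 0.0776 (adjusted p = 0.00257), as 1 member with 0.219% of all genes called. Without the experiment 4 array it was 0.70 (adjusted p = 0.00253). It was not called without experiment 2 (adjusted p = 0.0864) or without experiment 3 (adjusted p = 0.0588).

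Set against DMSO, the ID8 differences of DSP had opposite signs in the 2 fractions. In Aldefluor- cells DSP fell by 0.57 ± 0.11 with ID8 (SE, 1.48-fold, adjusted p = 0.0394), by 0.66, 0.50 and 0.54 in experiments 2, 3 and 4, and the 2 groups did not overlap. That call was lost without any 1 of the 6 experiments (adjusted p = 0.0858 to 0.374). In Aldefluor+ cells DSP differed by 0.40 ± 0.11 with ID8, by 0.28, 0.25 and 0.66 in the 3 experiments, without overlap and without passing the test (adjusted p = 0.176). It was 0.29 ± 0.12 without the experiment 4 array of the DMSO group (adjusted p = 0.371). The test of the difference between both ID8 effects gave 0.96 ± 0.16 and an adjusted p of 0.0965, so the opposite directions did not pass over all genes, where 0 of 59 members and 0.00447% of all genes were called, and 5 members and 7.06% of all genes had an unadjusted p under 0.05 in limma. It passed without the block (adjusted p = 0.00887), with dim genes left out (adjusted p = 0.00917) and with quantile normalization (adjusted p = 0.0352). Experiment means had already been removed from the values, so adjusted p without the block, here and below, tend to be too small. Leaving out the experiment 4 array gave 0.86 ± 0.16 (adjusted p = 0.136).

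In T47D the values lay closer together. DSP stood at 6.84, 6.79 and 6.71 in T47D Aldefluor+ cells with ID8 and at 6.78, 6.97 and 6.97 in Aldefluor- cells with ID8. With DMSO it stood at 6.61, 6.66 and 6.71 in Aldefluor+ cells and at 6.97, 6.83 and 7.02 in Aldefluor- cells. The T47D fractions thus differed by -0.20 ± 0.08 over both treatments (adjusted p = 0.311), with the Aldefluor+ cells lower in 5 of 6 pairs of arrays. The fraction difference of SUM159 minus that of T47D was 0.85 ± 0.11 (adjusted p = 0.00144), the 1 member called there, with 0.478% of all genes called. Without the experiment 4 array it was 0.90 (adjusted p = 0.000841). Sorted fractions are bulk samples, in which a change in RNA per cell and a change in the share of cells that carry the RNA cannot be told apart.

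**Figure D2:**
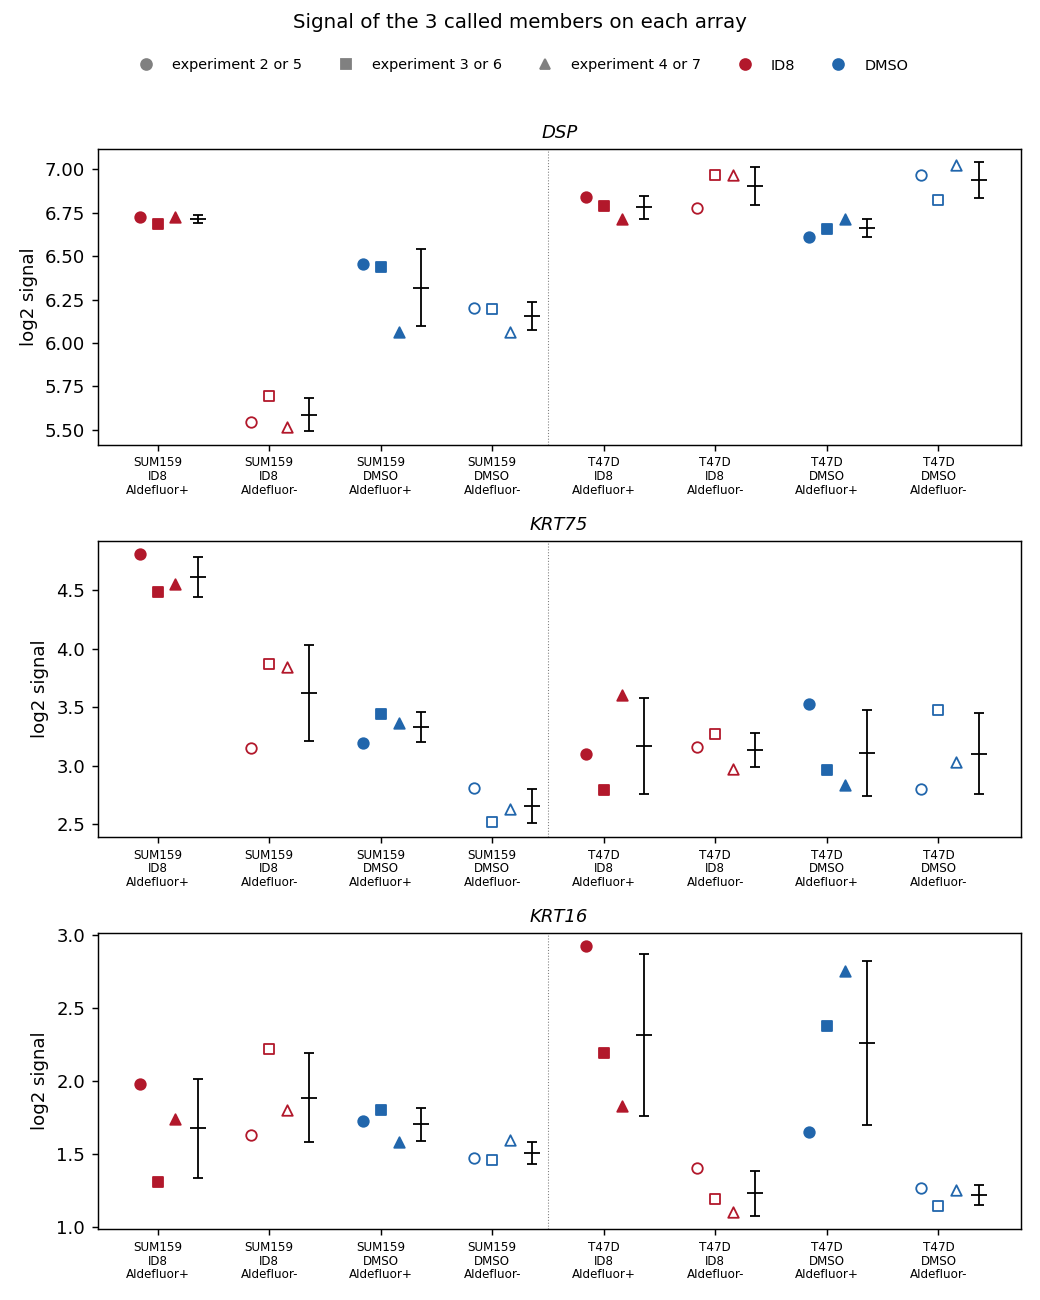
Log2 signal (vertical axes) of DSP, KRT75 and KRT16 on each of the 24 arrays in the 8 groups (horizontal axes), with ID8 in red and DMSO in blue, filled marks for Aldefluor+ and open marks for Aldefluor- cells, 1 marker shape per experiment, and a bar for the mean ± SD of 3 arrays. DSP of SUM159 with ID8 lies at 6.69 to 6.73 in Aldefluor+ and at 5.52 to 5.70 in Aldefluor- cells.

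The other desmosome genes showed no called change in any of the 16 comparisons. DSG2, the desmoglein of simple epithelia, stood at 7.19, 7.23 and 7.28 in SUM159 Aldefluor+ cells with ID8 and at 7.43, 7.34 and 7.47 in Aldefluor- cells with ID8, a difference of -0.18 ± 0.11 (adjusted p = 0.769). Its difference was below 0 in all 8 pairs of groups and never beyond -0.18. DSP and DSG2 therefore had opposite signs between the fractions of SUM159 with ID8.

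DSC2, the desmocollin of simple epithelia, was the desmosomal cadherin with the larger differences. It stood at 3.34, 3.47 and 3.34 in SUM159 Aldefluor- cells with ID8, against 3.85, 3.76 and 3.74 with DMSO, and the groups did not overlap. The difference of -0.40 ± 0.10 was not called (adjusted p = 0.178). It was called without the block and with dim genes left out. In T47D the Aldefluor+ cells lay below the Aldefluor- cells by 0.29 with ID8 and by 0.26 with DMSO, without overlap in either treatment, and the mean of -0.28 ± 0.07 was not called (adjusted p = 0.109). It was called without the block (adjusted p = 0.0179) and with dim genes left out (adjusted p = 0.022).

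Plaque proteins next to DSP were not called. JUP, which also serves in adherens junctions, differed by -0.27 ± 0.22 with ID8 in SUM159 Aldefluor- cells and by -0.39 ± 0.22 in T47D Aldefluor- cells (adjusted p = 0.824 and 0.834). PKP2, the plakophilin of simple epithelia and heart, differed by -0.32 ± 0.12 between the fractions of SUM159 with DMSO and by 0.30 ± 0.12 with ID8 in T47D Aldefluor+ cells (adjusted p = 0.505 and 0.359). The SUM159 difference of PKP2 was -0.24 ± 0.13 without the experiment 4 array. PKP3, the broadly expressed plakophilin, stood at 3.17, 3.59 and 3.08 in T47D Aldefluor+ cells with ID8, against 4.05, 3.67 and 3.94 with DMSO, a difference of -0.61 ± 0.21 (adjusted p = 0.293). The 2 groups did not overlap for PKP3, with ID8 below DMSO.

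Desmosome genes of stratified epithelia were low. PKP1, their plakophilin, had group means of 1.32 to 1.70, and ID8 differed between the lines by -0.40 ± 0.13 for it (adjusted p = 0.21), and by -0.41 without the experiment 4 array. DSG1, DSG3, DSG4, DSC1 and DSC3, which serve in skin and hair, lay between -0.30 and 0.28 in the 8 pairs of groups.

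Across all 12 desmosome genes the median difference stayed near 0. Under ID8 in SUM159 Aldefluor- cells 4 were above 0 and 8 below, with a median of -0.11, against -0.01 over all genes. Between the SUM159 fractions with ID8, 7 were above 0 and 5 below, with a median of 0.06, against -0.01 over all genes. DSP was the 1 gene of the list called in each.

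**Figure D3:**
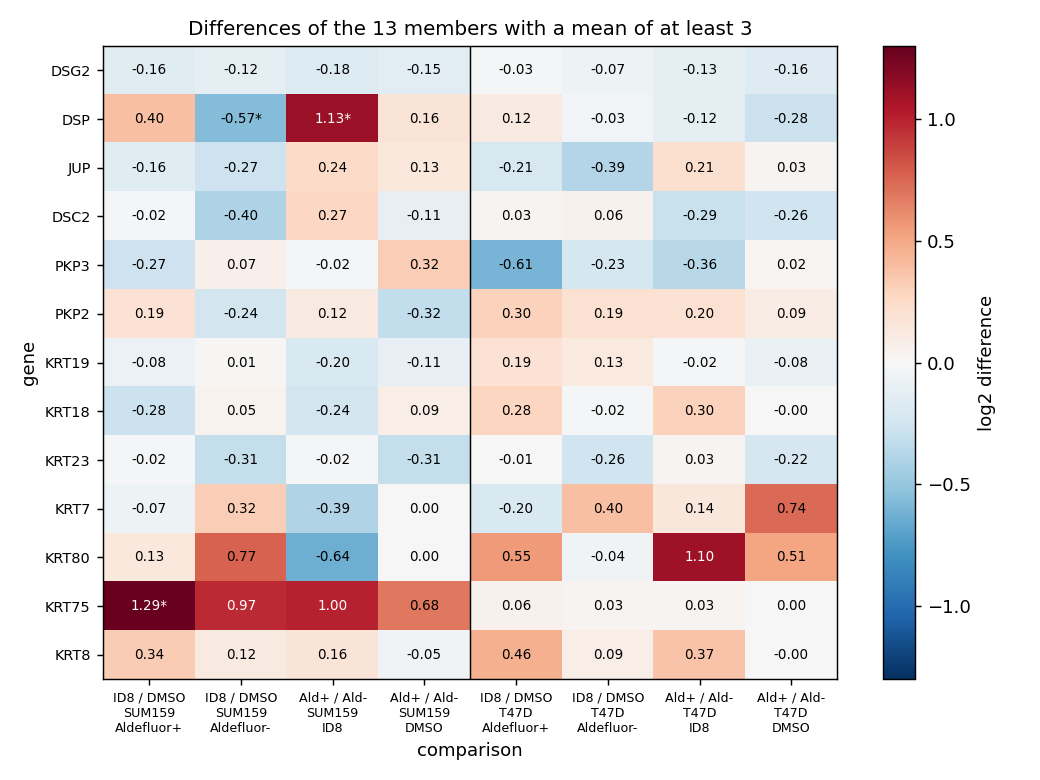
Log2 differences (colour, numbers in the cells) of the 13 genes with a 24-array mean of at least 3 (rows) in the 8 pairs of groups (columns), SUM159 left and T47D right of the line. Asterisks mark adjusted p under 0.05: DSP in 2 SUM159 columns (-0.57 and 1.13) and KRT75 in 1 (1.29).

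KRT75, a type II keratin known from the companion layer of the hair follicle, was the 1 keratin called higher with ID8 in SUM159. It stood at 4.81, 4.49 and 4.56 in SUM159 Aldefluor+ cells with ID8, against 3.19, 3.44 and 3.36 with DMSO. The lowest ID8 array lay more than 1 log2 unit above the highest DMSO array. The difference was 1.29 ± 0.25 (SE, 2.44-fold, adjusted p = 0.048), with 1.62, 1.04 and 1.19 in experiments 2, 3 and 4.

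That p sits close to the threshold. It rose to 0.113 without the experiment 4 array of the DMSO group, and it lay between 0.0502 and 0.310 without experiment 2, 3, 4, 5 or 6. Without experiment 7 it was 0.0489. In Aldefluor- cells KRT75 stood at 3.15, 3.87 and 3.85 with ID8, against 2.81, 2.52 and 2.62 with DMSO, also without overlap. The difference of 0.97 ± 0.25 was not called there (adjusted p = 0.174).

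Over both fractions the rise was called, at 1.13 ± 0.18 (2.19-fold, adjusted p = 0.00432), as 1 member with 0.688% of all genes called, and ID8 was higher in 6 of 6 pairs of arrays. Without the experiment 4 array it was 1.12 (adjusted p = 0.0143). It was not called without experiment 3 (adjusted p = 0.108) or experiment 4 (adjusted p = 0.103). KRT75 was also higher in Aldefluor+ than Aldefluor- cells in 6 of 6 pairs of SUM159 arrays, by 1.00 ± 0.25 with ID8 and 0.68 ± 0.25 with DMSO, without overlap. The mean of 0.84 ± 0.18 was not called (adjusted p = 0.0791). The DMSO difference was 0.69 and the mean 0.84 without the experiment 4 array (adjusted p of the mean = 0.152). The 4 SUM159 groups thus ran in the order ID8 Aldefluor+ (mean 4.62), ID8 Aldefluor- (3.62), DMSO Aldefluor+ (3.33) and DMSO Aldefluor- (2.65), and the ID8 Aldefluor- and DMSO Aldefluor+ groups overlapped.

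In T47D all 12 KRT75 values lay between 2.79 and 3.61, with overlap in every pair of groups. ID8 differed by 0.04 ± 0.18 over both fractions there (adjusted p = 0.965). The ID8 effect in SUM159 minus that in T47D was 1.08 ± 0.25 and was not called (adjusted p = 0.0626; 0.0887 without the experiment 4 array), and 0 of 59 members and 0.647% of all genes were called for that difference, with 4 members and 10.9% of all genes at an unadjusted p under 0.05 in limma. KRT75 was called there without the block and with dim genes left out. KRT6 genes are close relatives of KRT75 on the same chromosome, and whether their RNA adds to its signal was not tested; KRT6C, the copy with a probe set of its own, was low, with group means of 0.46 to 1.38, and was not called. Of the basal or myoepithelial markers, 3 of 5 were measured, and ACTA2, smooth muscle actin, rose with ID8 over both fractions by 1.04 ± 0.15 in SUM159 (adjusted p = 0.0029) and by 0.97 ± 0.15 in T47D (adjusted p = 0.00899), where KRT75 was level at 0.04. KRT5 and KRT14 were not called, and the part of such cells in the KRT75 result was not tested.

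KRT16 is a type I keratin that skin cells make in wounds and under stress. In the mean of both treatments it was the 1 member called between the T47D fractions. Its 24-array mean of 1.73 is low, so its folds are not ratios of transcript number. It stood at 2.92, 2.19 and 1.83 in T47D Aldefluor+ cells with ID8, against 1.40, 1.19 and 1.10 in Aldefluor- cells with ID8. With DMSO it stood at 1.65, 2.38 and 2.75 in Aldefluor+ cells, against 1.27, 1.14 and 1.25 in Aldefluor- cells. The lowest of the 6 Aldefluor+ arrays lay above the highest of the 6 Aldefluor- arrays. Above 2 lay 4 of the 6 Aldefluor+ arrays, and all 6 Aldefluor- arrays lay below it. DSC2, not called, also separated the T47D fractions, in the other direction. Its Aldefluor+ arrays reached at most 4.33 and its Aldefluor- arrays lay at 4.40 or above. The mean difference of KRT16 was 1.06 ± 0.20 (adjusted p = 0.0147), as 1 member with 0.875% of all genes called. It was not called without experiment 6 (adjusted p = 0.184) or experiment 7 (adjusted p = 0.0800). Each treatment alone gave 1.08 ± 0.28 with ID8 and 1.04 ± 0.28 with DMSO, neither of them called (adjusted p = 0.157 and 0.227).

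In SUM159 the KRT16 fractions differed by -0.01 ± 0.20, and by 0.03 ± 0.22 without the experiment 4 array. The difference between the lines of -1.07 ± 0.28 was not called (adjusted p = 0.132; 0.214 without that array). KRT16 has pseudogene copies, so its signal is uncertain. The copies with probe sets of their own, looked up after the values were seen, gave T47D fraction differences of 0.40 ± 0.21 for KRT16P2 and -0.13 ± 0.21 for KRT16P3 (adjusted p = 0.51 and 0.895).

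The other keratins were not called between the T47D fractions and lay on both sides of 0. In the mean of both treatments 17 of 26 type I keratins, KRT16 included, were above 0 and 9 below (median 0.04), and 13 of 21 type II keratins were above and 8 below (median 0.05), against a median of -0.0025 over all genes. KRT37, a hair keratin, was at -0.65 ± 0.35 with ID8 (adjusted p = 0.632) and at -0.21 in the mean. KRT80, a type II keratin of many epithelia, stood at 3.99, 3.80 and 4.27 in T47D Aldefluor+ cells with ID8, against 2.68, 2.91 and 3.17 in Aldefluor- cells with ID8, without overlap. Its mean difference over both treatments was 0.81 ± 0.22 (adjusted p = 0.123). KRT15, a keratin of basal cells, gave 0.64 ± 0.16 (adjusted p = 0.0795), higher in Aldefluor+ cells in 6 of 6 pairs of arrays. KRT7, a keratin of ducts and glands, stood at 3.98, 3.93 and 4.34 in Aldefluor+ cells with DMSO, against 3.53, 3.16 and 3.34 in Aldefluor- cells, a difference of 0.74 ± 0.24 (adjusted p = 0.341) that was 0.14 ± 0.24 with ID8. KRT80 in SUM159 went the other way with ID8, at -0.64 ± 0.31 between the fractions (adjusted p = 0.682). In the mean of both treatments it was at -0.32 ± 0.22 there (adjusted p = 0.767). The difference between the lines in that mean, -1.12 ± 0.31, was not called (adjusted p = 0.167). Without the experiment 4 array of SUM159 the difference between the lines was -1.31 ± 0.29 (adjusted p = 0.0701).

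**Figure D4:**
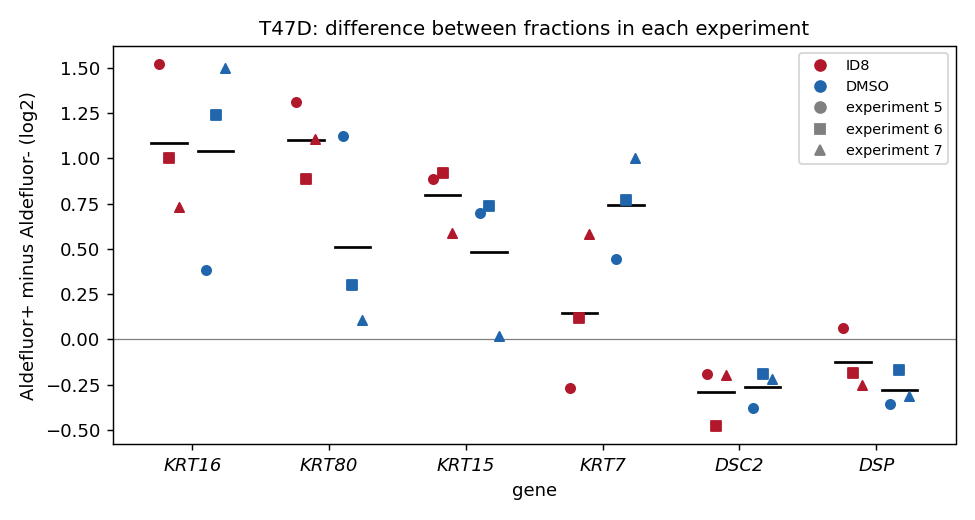
Aldefluor+ minus Aldefluor- difference in log2 signal (vertical axis) in each T47D experiment, with ID8 in red and DMSO in blue, for KRT16, KRT80, KRT15, KRT7, DSC2 and DSP (horizontal axis); the bar is the mean of 3 experiments. KRT16, KRT80 and KRT15 lie above 0 in 6 of 6 pairs, DSC2 below 0 in 6 of 6 and DSP in 5 of 6.

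The keratins that define luminal cells were not called in any of the 16 comparisons. KRT18 stood at 4.55, 4.52 and 4.61 in SUM159 Aldefluor+ cells with ID8, against 5.03, 4.81 and 4.68 with DMSO, a difference of -0.28 ± 0.12 (adjusted p = 0.42). It was -0.39 ± 0.13 without the experiment 4 array of the DMSO group (adjusted p = 0.259). In T47D Aldefluor+ cells it stood at 5.08, 5.09 and 5.15 with ID8, against 4.82, 4.91 and 4.76 with DMSO, a difference of 0.28 ± 0.12 (adjusted p = 0.412). The groups did not overlap in either line, and the sign was opposite. The difference between the lines in these cells alone was not tested. Over both fractions the ID8 effect on KRT18 in SUM159 minus that in T47D was -0.24 ± 0.12 and was not called (adjusted p = 0.478). KRT19 differed by at most 0.20 in any of the 8 pairs, with a standard error of 0.14.

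KRT8, the type II partner of KRT18, was the least stable of them. Its difference with ID8 in T47D was 0.85, 1.06 and -0.53 in Aldefluor+ cells and 0.98, 0.38 and -1.09 in Aldefluor- cells in experiments 5, 6 and 7. Experiment 7 ran against the other 2 in both fractions, which left a mean of 0.28 ± 0.24 (adjusted p = 0.747). KRT8 and KRT18 have many processed pseudogenes, and whether these add to the signals was not tested. KRT23 differed by -0.31 to 0.03 in the 8 pairs, and KRT20, a keratin of gut and urothelium, was low throughout, with group means of 0.58 to 1.12.

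**Figure D5:**
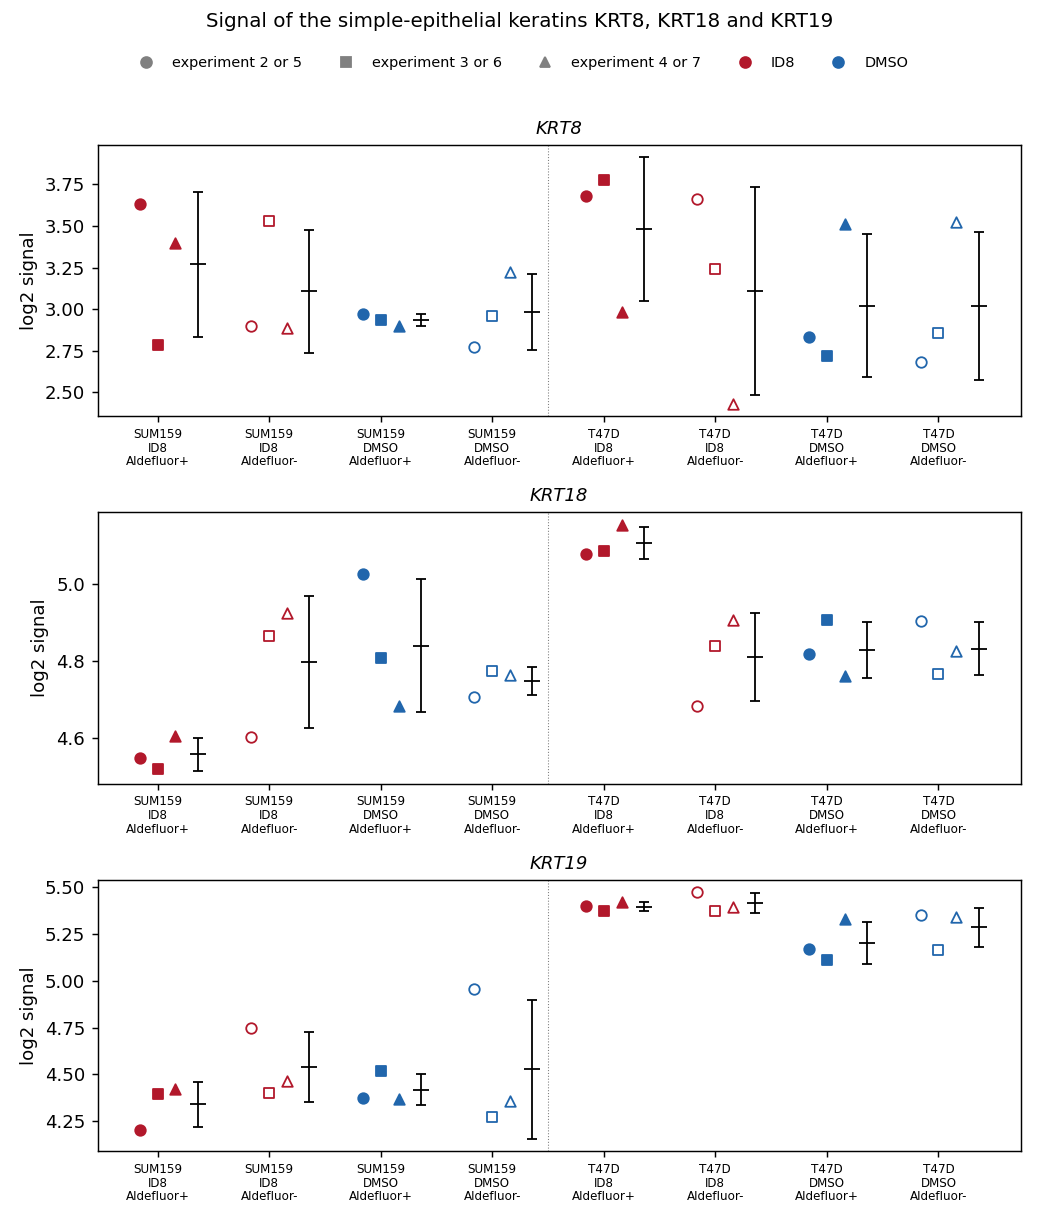
Log2 signal (vertical axes, each with its own range) of KRT8, KRT18 and KRT19 on each of the 24 arrays in the 8 groups (horizontal axes), with ID8 in red and DMSO in blue, filled marks for Aldefluor+ and open marks for Aldefluor- cells, and bars for the mean ± SD of 3 arrays. KRT18 in Aldefluor+ cells lies lower with ID8 than with DMSO in SUM159 and higher in T47D; neither difference was called.

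The basal keratins KRT5 and KRT14 stayed low, while KRT15 had a 24-array mean of 2.33. KRT5 had group means of 0.91 to 1.28, and KRT14, its type I partner, had 1.25 to 1.80. KRT14 stood at 1.63, 1.94 and 1.82 in SUM159 Aldefluor+ cells with ID8, against 1.23, 1.26 and 1.28 in Aldefluor- cells with ID8, a difference of 0.54 ± 0.24 (adjusted p = 0.635). With DMSO the same fractions gave 0.35 ± 0.24 (0.41 ± 0.29 without the experiment 4 array), again without overlap, and the signals remain near background.

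The hair keratins KRT83 and KRT37 varied widely between arrays. KRT83 had group means of 1.68 to 2.28 with SDs up to 0.63. KRT37 averaged 3.21 ± 0.47 in SUM159 Aldefluor+ cells with ID8 and 2.69 ± 0.28 with DMSO (SD, n = 3), a difference of 0.52 ± 0.35 (adjusted p = 0.669). Without the experiment 4 array it was 0.76 ± 0.40 (adjusted p = 0.514). The remaining 32 keratins, 18 of type I and 14 of type II, had means of 0.535 to 2.66, with 31 of them below 2. Their differences in the 8 pairs ran between -0.57 and 0.70, and their lowest adjusted p in the 16 comparisons was 0.34.

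In the other 5 pairs of groups limma called 0 of 59 members. For the SUM159 fractions with DMSO 0.0223% of all genes were called, and 4 members and 7.95% of all genes had an unadjusted p under 0.05. For ID8 in T47D the shares were 0.375% in Aldefluor+ cells and 0.0179% in Aldefluor- cells, with 6 and 1 members at an unadjusted p under 0.05, against 10.8% and 6.6% of all genes. For the T47D fractions they were 0.366% with ID8 and 0.152% with DMSO, with 5 and 8 members at an unadjusted p under 0.05, against 8.93% and 8.96% of all genes. The mean effect of ID8 in T47D called 0 members, with 0.505% of all genes called and 5 members at an unadjusted p under 0.05, against 10.9% of all genes. The difference of ID8 effects between the T47D fractions called 0 members and 0% of all genes, with 1 member at an unadjusted p under 0.05, against 5.93% of all genes.

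Groups of 3 arrays that do not overlap are common in these data. With ID8, 8 members in SUM159 Aldefluor+ cells and 13 in Aldefluor- cells had groups that did not overlap, against 18.7% and 18.9% of all genes. Between the SUM159 fractions the counts were 8 with ID8 and 11 with DMSO, against 17% and 17.3% of all genes. In T47D they were 9 and 11 with ID8 in Aldefluor+ and Aldefluor- cells, against 21.2% and 16.5%, and 9 and 13 between the fractions with ID8 and DMSO, against 19.5% and 19.1%. Counts of 8 to 13 in 59 are near those shares, so a lack of overlap alone is not a result about these genes.

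Genes that work with the members were read from lists chosen beside them. Of 23 cornified envelope genes and desmosome partners, S100A9, a calcium-binding protein of inflamed epithelium, rose with ID8 in T47D over both fractions by 0.91 ± 0.14 (adjusted p = 0.00867). It was also higher in T47D Aldefluor+ than Aldefluor- cells, by 0.76 ± 0.14 over both treatments (adjusted p = 0.0143). IVL, involucrin of the cornified envelope, was higher in T47D Aldefluor+ cells by 0.81 ± 0.15 (adjusted p = 0.0142). The mean T47D fractions thus had 2 of 23 called, both higher, against 0.875% of all genes called, with a list median of 0.04, against -0.0025 over all genes. With DMSO alone the T47D fractions had 1 of 23 called, S100A9 at 1.10 ± 0.20 (adjusted p = 0.0358), against 0.152% of all genes. For mean ID8 in T47D 1 of 23 was called, S100A9, against 0.505% of all genes, and the list median was 0.05.

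In SUM159 the list gave 1 called gene of 23 in the mean of the fractions, against 0.219% of all genes. SFN, the epithelial protein stratifin, stood at 5.89, 5.79 and 5.85 in Aldefluor+ cells with ID8, against 5.08, 5.31 and 5.29 in Aldefluor- cells with ID8. Its mean difference over both treatments was 0.73 ± 0.12 (adjusted p = 0.0114). With DMSO it stood at 5.89, 6.06 and 5.82 in Aldefluor+ cells, against 4.87, 5.13 and 5.22 in Aldefluor- cells. Neither treatment alone was called (adjusted p = 0.209 with ID8 and 0.13 with DMSO).

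Hemidesmosomes, which anchor keratins to the basement membrane, had 6 of 9 listed genes measured. Between the SUM159 fractions with ID8, 6 of 6 lay above 0, with a median of 0.30, against -0.01 over all genes, and ITGB4, the integrin that binds the plaque, was at 0.72 ± 0.26 (adjusted p = 0.487). With ID8 in SUM159 Aldefluor- cells 6 of 6 lay below 0, with a median of -0.30, and ITGA6, its partner integrin, was at -0.52 ± 0.15 (adjusted p = 0.282). None of the 6 was called in either comparison, and both use the same SUM159 Aldefluor- arrays with ID8. Between the T47D fractions 6 of 6 also lay above 0 in the mean of both treatments, with a median of 0.08. Between the SUM159 fractions with DMSO 4 of 6 did, with a median of 0.04. ITGA6 was called for the ID8 effect in SUM159 minus that in T47D, at -0.84 ± 0.15 (adjusted p = 0.0163), as 1 of 6, against 0.647% of all genes. It averaged 6.58 and 6.40 in SUM159 Aldefluor+ and Aldefluor- cells with ID8, against 6.98 and 6.92 with DMSO, and 6.78 and 6.50 in the T47D fractions with ID8, against 6.24 and 6.28 with DMSO.

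Adherens junction genes (9 of 10 measured), other intermediate filament proteins (13 of 13) and epithelial transcription factors (16 of 17) had 0 called in limma in each of the 16 comparisons. At an unadjusted p under 0.05 a comparison held 0 to 2 adherens junction genes, 0 to 4 other filament genes and 0 to 3 transcription factors, against 1328 to 2535 of 22395 genes. CDH1, the cadherin of adherens junctions, averaged 4.87 ± 0.014 in SUM159 Aldefluor+ cells with ID8 and 4.87 ± 0.029 in Aldefluor- cells with ID8 (SD, n = 3), where DSP differed by more than 1.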

How the data were processed

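The authors deposited log2 signals per probe set from Affymetrix Human Gene arrays on 1 plate, made by robust multiarray averaging (RMA) and adjusted with ComBat for experiment and processing batch, per the labels' design text and the submitters' processing notes. Software versions, batches and protected covariates are therefore unknown here. Having no read depth, arrays are limited in precision by their number.

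Of 53617 probe sets, 23871 named 1 gene, 1842 several and 27904 none; symbols of 22569 were updated by gene number (RefSeq, GRCh38.p14). The probe set with the highest 24-array mean was kept for 632 genes, leaving 22395. Differences were fitted with limma 3.58.1 (R 4.3.3; lmFit, eBayes, two-sided, 8 group means, experiment as a block, 12 residual degrees of freedom), with Benjamini-Hochberg adjustment over all genes, and scripts were tested on simulated data. SE, adjusted p and 95% intervals come from this fit, SD from arrays. The 16 comparisons were the 8 pairs of the submitters, 4 means within a line and 4 differences of effects. Promoters were scanned for 3 motifs on both strands.

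The experiment numbers pair the samples, because the labels give each one as its own experiment. In the adjusted values, arrays of the same experiment had deviations with correlations of -0.408 to -0.266 (36 pairs), against 0.0986 to 0.244 for arrays of other experiments. Experiment means were thus already removed. The fit without the block still counts 16 residual degrees of freedom, against 12 with it, so its adjusted p tend to be too small.

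Alternatives were a fit without the block, dim genes left out (mean below 3 in all 8 groups), quantile normalization, the mean of all probe sets of a gene, each experiment left out, and 1 array left out. They were read for members only, so calls of other listed genes, such as SFN, S100A9, IVL, ITGA6 and ACTA2, have no such check. Members, gene lists and tests were chosen with earlier results of these data known. Members were named where called, where among the 3 highest or 3 lowest differences of a comparison with a mean of at least 3 in 1 of its groups, or where listed as simple, basal, stress or hair keratins or desmosome genes.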

Additional observations from a re-analysis of the deposited data

Results flagged for a closer look

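The difference of DSP between fractions was flagged because it differed between the lines by a test of the difference itself. Aldefluor+ minus Aldefluor- was 0.645 ± 0.0776 in SUM159 and -0.20 ± 0.08 in T47D (log2, SE, mean of both treatments). The first minus the second was 0.85 ± 0.11 (limma, adjusted p = 0.00144), with Aldefluor+ cells higher in 6 of 6 pairs of SUM159 arrays and in 1 of 6 pairs of T47D arrays. Under the 11 alternatives the difference ran from 0.81 to 0.90, with adjusted p from 0.000104 to 0.0299.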

How the results depend on the processing

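Called members are few, so their counts per comparison move easily. Without the replicate block, counts were 3 for ID8 in SUM159 Aldefluor- cells (DSP, DSC2 and KRT75, against 1 with the block), 2 for the SUM159 fractions with ID8 (against 1), 1 each for the T47D fractions with ID8 and with DMSO (KRT16, against 0), 2 for the mean SUM159 fractions (against 1), 4 for the mean T47D fractions (against 1), 1 for the difference of ID8 effects between SUM159 fractions (DSP, against 0), 1 for ID8 between lines (KRT75, against 0) and 4 for the fractions between lines (against 1). The block changed no other count by over 1.5 times. Counts without the block tend to be too high, since that fit takes no account of the experiment means already removed. Leaving out dim genes kept 9218 genes and 14 members and gave 2 for ID8 in SUM159 Aldefluor+ cells and 2 in Aldefluor- cells, 2 for the mean SUM159 fractions, 1 for the difference of ID8 effects in SUM159 and 1 for ID8 between lines. KRT16 is too dim to be in that table. Quantile normalization gave 1 for the difference of ID8 effects in SUM159 (DSP).

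Leaving out 1 experiment or 1 array gave 0 to 1 called members for ID8 in SUM159 Aldefluor+ cells, 0 to 1 in Aldefluor- cells, 0 to 1 for mean ID8 in SUM159, 0 to 1 for the mean SUM159 fractions and 0 to 1 for the mean T47D fractions. Experiments of T47D enter through the shared spread: the KRT75 call in SUM159 Aldefluor+ cells was lost without experiment 5 (adjusted p = 0.0502) or 6 (0.0696), and the DSP call in Aldefluor- cells without 5, 6 or 7 (adjusted p = 0.0858 to 0.0958). Over the 7 called differences, 58 alternative values kept the call, 18 lost it and 0 reversed; every loss came from leaving out samples, which leaves fewer residual degrees of freedom, and the cause was not tested further. DSP between the SUM159 fractions with ID8 kept its call in 11 of 11 alternatives (adjusted p up to 0.0185). Low signal over background limits the 42 members with a mean below 2.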
